A study of Mus musculus with 4 samples.

Results

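Gene deserts are long stretches of the genome with no protein-coding gene, and this report describes the peaks of a Malat1 pull-down that lie deep inside them. A peak was counted as a desert peak when it lay on an autosome other than 2, 9, 11, 15 and 19 and its summit was more than 500 kb outside the body of every protein-coding gene of the RefSeq table for mm10 (GRCm38.p6). By this rule 2455 of the 77823 peaks in the list were desert peaks, which is 4.81% of the 51072 peaks on the 14 chromosomes used and 3.15% of the whole list. The rule used position only. The tags, heights and fold values of the peaks played no part in it.

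The study captured the chromatin held with Malat1 in 4T1-TGL, a mouse breast cancer cell line with the strain label BALBC, by ChIRP, in which biotinylated antisense oligonucleotides pull down a nuclear RNA and the DNA held with it is sequenced. The 4 libraries, all of WT genotype from untreated cells as far as the labels say, were a pull-down labelled Even, a pull-down labelled Odd, a pull-down labelled Lacz and an input labelled Even Input, with 1 library each. ChIRP experiments commonly split the probes of an RNA by their order along it and add probes to the bacterial lacZ RNA as a control. The labels do not say whether the library names follow that custom, and their protocol names Malat1 oligonucleotides for every library. The values described here come from a single merged treatment of 851227 tags set against a single input of 50030325 tags. The sources used here do not give which pull-downs were merged. There is therefore no replicate, no value per library and no comparison with the Lacz pull-down, and no test of a difference was made. Intervals given with counts cover counting error only, and peaks and tags were not shown to be independent. The identity of the cells could not be checked by marker genes in a list of DNA peaks, and the reference genome is that of C57BL/6J.

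Malat1 is an abundant long noncoding RNA that stays in the nucleus and gathers in nuclear speckles, the compartments rich in splicing factors, and it is best known at the bodies of actively transcribed genes. Gene deserts are in many ways the opposite setting: they are typically poor in G and C, rich in LINE repeats, late replicating and often in contact with the nuclear lamina. Many of them border genes that act in development or in the nervous system, and some carry distant enhancers of those genes or long noncoding RNA genes.

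Few sequences could be tied to the desert peaks, because sequence was at hand only for gene starts and miRNAs. Of 182 gene-start windows of 300 bases that lay wholly inside deserts, 3 were touched by a desert peak, and RefSeq classes all 3 genes as long noncoding RNA genes. The windows are shown because they are the gene-start windows that desert peaks touched. No peak covered the annotated start itself, at 48546416 for Gm46835, 71265466 for Gm36212 and 86806513 for Gm32461. At Gm46835 and Gm32461 the peak lay upstream of the start, and at Gm36212 inside the gene. They are RefSeq sequences of GRCm38.p6, 5′ to 3′ on the strand of the gene, and capitals mark the bases inside the peak. Gm46835 is on the plus strand at chr3:48546166-48546465, Gm36212 on the minus strand at chr7:71265417-71265716, and Gm32461 on the minus strand at chr16:86806464-86806763.
Gm46835: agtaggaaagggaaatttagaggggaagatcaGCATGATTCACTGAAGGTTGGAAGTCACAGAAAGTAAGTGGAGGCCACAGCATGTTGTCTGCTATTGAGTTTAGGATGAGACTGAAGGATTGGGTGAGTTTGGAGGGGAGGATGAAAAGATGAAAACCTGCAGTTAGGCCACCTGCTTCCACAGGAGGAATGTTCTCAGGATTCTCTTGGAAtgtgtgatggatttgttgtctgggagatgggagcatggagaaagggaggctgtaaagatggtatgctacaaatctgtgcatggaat
Gm36212: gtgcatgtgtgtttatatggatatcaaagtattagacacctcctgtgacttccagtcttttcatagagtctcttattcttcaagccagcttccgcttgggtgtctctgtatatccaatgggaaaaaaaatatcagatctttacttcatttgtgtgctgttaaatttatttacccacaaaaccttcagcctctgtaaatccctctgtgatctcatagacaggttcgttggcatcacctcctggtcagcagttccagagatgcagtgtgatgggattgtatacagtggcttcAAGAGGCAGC
Gm32461: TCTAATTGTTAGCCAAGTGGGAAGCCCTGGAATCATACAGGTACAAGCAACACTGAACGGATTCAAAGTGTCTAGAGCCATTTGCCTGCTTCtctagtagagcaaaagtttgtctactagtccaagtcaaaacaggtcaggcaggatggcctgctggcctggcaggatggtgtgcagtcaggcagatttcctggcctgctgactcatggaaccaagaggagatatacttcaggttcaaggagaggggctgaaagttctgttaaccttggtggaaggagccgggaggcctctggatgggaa

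The peak at Gm46835 lay wholly in its window, 1197 kb from the nearest coding gene, and held 6 tags with a fold of 179.5. The other two peaks were weaker. The one at Gm32461 held 3 tags with 92 of its bases in the window, and the one at Gm36212 held 4 tags and entered the window by 10 bases. The share of windows with a peak, 1.65% (95% exact interval 0.341 to 4.74), lay beside 1.78% of the 22181 gene-start windows elsewhere on these chromosomes, 395 of which were touched by a peak. The 3 windows held 45.7%, 42.0% and 50.3% G and C in the order printed. Among long noncoding RNA genes, the median was 42.3% G and C over 183 windows whose centre lay in a desert and 48.3% over 8013 windows elsewhere. The base composition of the peaks themselves was not analysed here.

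Of 18 miRNA hairpins in deserts, 1 held a desert summit, and it was Mir6342 on chromosome 1, in the stretch between Gm597 and Phf3. Its peak held 3 tags with a fold of 110.9. The next nearest summit was 0.221 kb from Mir7094-2, which lies among the immunoglobulin heavy chain segments of chromosome 12, and its peak also held 3 tags. The mature RNAs of both hairpins are shown because they are those nearest to a desert summit, with the seed, bases 2 to 8, in capitals. No seed was shared among them.
mmu-miR-6342: cAGCAGCAaucuggucuuugag
mmu-miR-7094b-2-5p: uCUGGAGAggauacagggucuga
mmu-miR-7094-3p: uACUCUGCuguucucuccaca

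The stretches more than 500 kb from a coding gene numbered 198 and covered 166.7 Mb, which is 9.16% of the bases between the first and last summit of these chromosomes. They held 4.81% of the summits. The density of summits in deserts was 14.7 per Mb (95% exact Poisson interval 14.2 to 15.3), against 29.4 per Mb (29.1 to 29.7) on the rest of the same chromosomes, a ratio of 0.501. Inside the bodies of protein-coding genes the density was 33.2 per Mb, and outside genes up to 500 kb it was 26.5 per Mb. Desert peaks were thus the sparsest of these classes, and their interval did not overlap those of the others.

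The density fell from bin to bin with distance, and outside genes the largest fall was that across 500 kb. Within 10 kb of a coding gene there were 30.8 summits per Mb, from 10 to 50 kb 28.0, from 50 to 100 kb 27.7, from 100 to 250 kb 24.5 and from 250 to 500 kb 20.4. Inside the deserts the density went on down, to 15.7 per Mb at 500 to 750 kb, 14.8 at 750 to 1000 kb, 13.5 at 1000 to 1500 kb and 13.4 (11.5 to 15.4) beyond 1500 kb. The interval at 500 to 750 kb (14.8 to 16.6) lay wholly below that at 250 to 500 kb (19.7 to 21.2). It overlapped the intervals at 750 to 1000 kb (13.7 to 16.1) and beyond 1500 kb, but not that at 1000 to 1500 kb (12.4 to 14.6). The last 3 desert intervals overlapped, so that beyond 750 kb the order of the densities was within counting error.

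**Figure D1:**
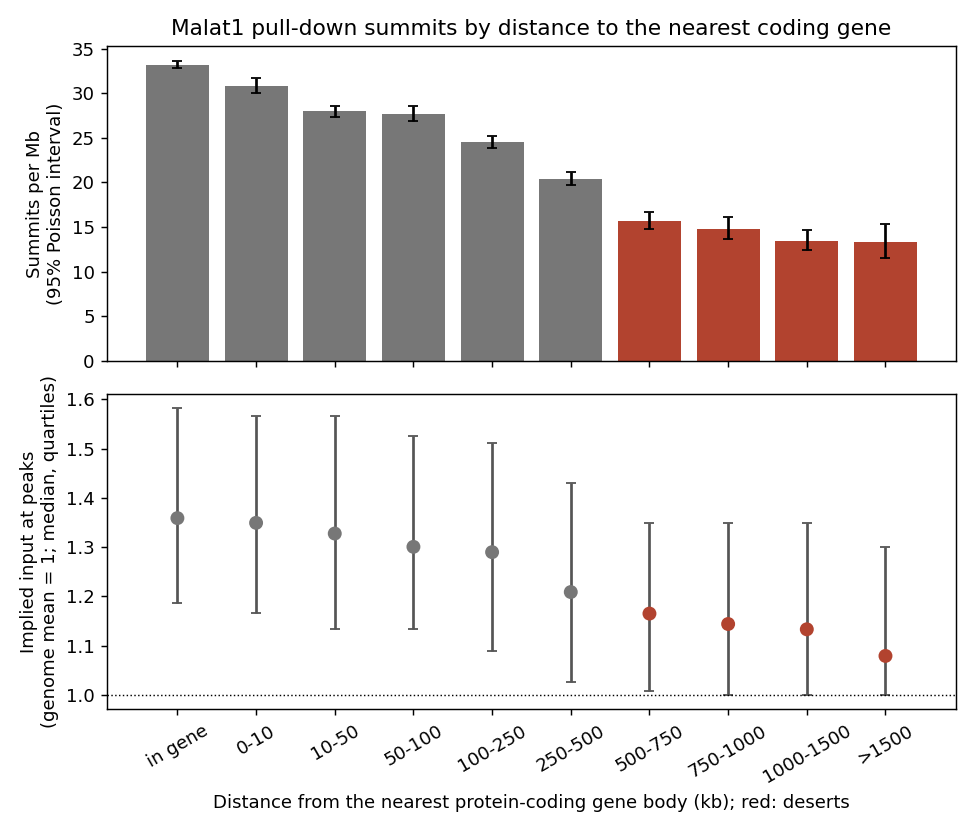
The upper panel plots summits per Mb and the lower panel the median implied input of the peaks with its quartiles, both by distance in kb from the nearest coding gene body, with bars for 95% Poisson intervals and deserts in red. Density falls from 33.2 per Mb inside genes to 13.4 beyond 1500 kb, and implied input falls from 1.36 to 1.08 over the same bins.

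The input moved with distance in the same direction. The fold of a peak is the authors' value, the height in tags divided by the local background that their caller took from the scaled input, and so the height over the fold gives back that background. Expressed in units of the genome mean (0.0167 tags per fragment length) it is called the implied input here. It cannot fall below 1, and it is known only where a peak was called. Its median was 1.36 inside coding genes, 1.21 at 250 to 500 kb, 1.17 at 500 to 750 kb and 1.08 beyond 1500 kb. Over all desert peaks the median was 1.13 (5th to 95th percentile 1.00 to 1.78), against 1.35 for the other peaks of these chromosomes. In 679 desert peaks (27.7%, exact interval 25.9 to 29.5) the implied input lay within 0.1% of the genome mean, against 10.1% of the other peaks. The input level, which takes in DNA copy number, how well reads align and base composition, could not be read away from peaks, and its part in the lower density of deserts was not tested.

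On each of the 14 chromosomes the deserts held fewer summits per Mb than the rest of that chromosome, and the interval of the ratio lay below 1 on every one. The ratio ran from 0.361 on chromosome 16 to 0.665 on chromosome 3, with a median of 0.494. Chromosome 5 had the densest deserts, with 18.6 summits per Mb against 37.2 elsewhere on it, followed by chromosome 12 with 17.8 against 37.5 and chromosome 10 with 17.6 against 32.3. Chromosome 6 had the sparsest, with 10.5 against 24.2, next to chromosome 14 with 10.7 against 21.9 and chromosome 16 with 10.8 against 29.98. The desert intervals of chromosomes 5, 12, 10 and 1 overlapped one another, as did those of chromosomes 6, 14, 16 and 8.

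**Figure D2:**
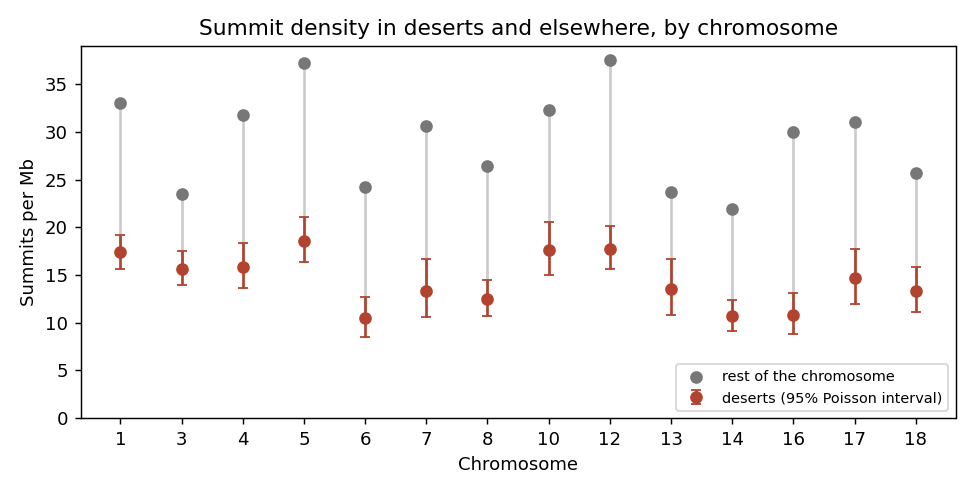
Summits per Mb on each of the 14 chromosomes, in deserts (red, with 95% Poisson intervals) and on the rest of the chromosome (grey). Every red point lies below its grey point, from 10.5 to 18.6 against 21.9 to 37.5 per Mb.

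Desert and other density went together over the chromosomes, with Pearson's r = 0.750 and Spearman's rho = 0.771 over 14 chromosomes. Desert density and the median implied input of desert peaks gave r = 0.909 and rho = 0.933. These are descriptions of 1 list, whose points share the libraries and their depth. The median implied input was lower in deserts than elsewhere on all 14 chromosomes. The gap was widest on chromosome 16, with 1.00 in deserts against 1.42, which was also the chromosome of lowest density ratio. Chromosome 1 held the most desert peaks, 369, and chromosome 7 the fewest, 77.

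Peak for peak, desert peaks carried as many tags as the others. The median was 4 tags in both classes, the 75th percentile 8 in both, and the 95th percentile 22 in deserts and 23 elsewhere. The smallest class allowed, 3 tags, made up 1002 desert peaks (40.8%, exact interval 38.9 to 42.8) against 38.8% of the others. At least 10 tags were held by 491 desert peaks (20%) and by 20.2% of the others. The median length was 133 bp in deserts and 134 bp elsewhere, and the median summit height was 3 tags in both. Most desert peaks thus rest on very few tags, as do most peaks of the list.

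At the upper end the values of the desert peaks were lower, though not always beyond counting error. Peaks with at least 30 tags numbered 56 in deserts (2.28%, exact interval 1.73 to 2.95) and 1466 elsewhere (3.02%, 2.87 to 3.17). By area that was 0.336 per Mb (0.254 to 0.436) in deserts against 0.886, a ratio of 0.379 (0.286 to 0.492). The ratio was 0.527 (0.495 to 0.561) for 3-tag peaks, 0.492 for 4 tags, 0.473 (0.438 to 0.509) for 5 to 9 tags and 0.518 for 10 to 29 tags, so that the interval of the strongest class overlapped that of each class but the 3-tag peaks. The intervals of the share with at least 30 tags overlapped slightly between desert and other peaks. Nor was that share low throughout the deserts: it was 2.88% at 500 to 750 kb, where 32 of the 56 lay, beside 2.96% at 250 to 500 kb, then 1.396% at 750 to 1000 kb, 1.91% at 1000 to 1500 kb and 2.59% beyond, from 8, 11 and 5 peaks. At least 50 tags were held by 8 desert peaks, 0.326% of them, against 0.880% of the others. No desert peak held 100 tags, which allows a share of up to 0.150% by the exact interval, and 37 other peaks did, or 0.0761%, a difference not detectable with this number of peaks. Peaks longer than 500 bp numbered 8 in deserts (0.326%, exact interval 0.141 to 0.641, which holds the other value) and 262 elsewhere (0.539%).

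**Figure D3:**
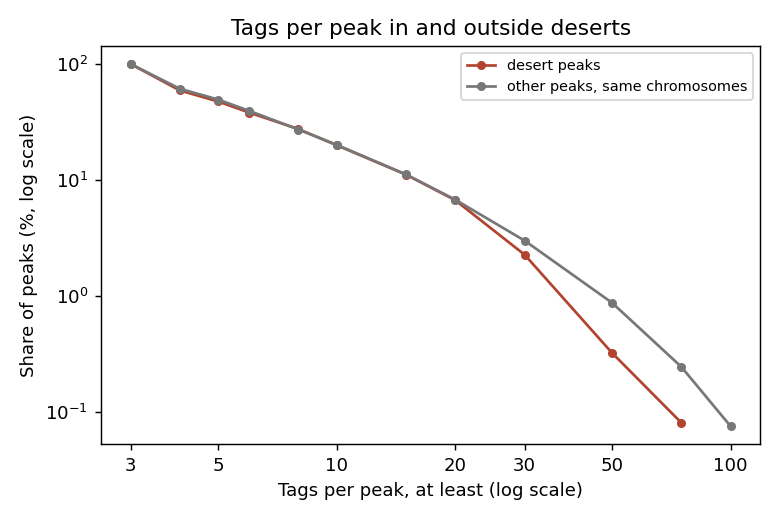
Share of peaks in percent with at least the number of tags on the x axis, both on log scales, for desert peaks (red) and the other peaks of the same chromosomes (grey). The curves lie together at 20% and 20.2% for 10 tags and separate at 50 tags, with 0.326% and 0.880%.

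The fold values of desert peaks were somewhat higher. Their median was 164 (5th to 95th percentile 80.4 to 454), against 143 for the other peaks, and it was higher in deserts on all 14 chromosomes. Fold is height divided by background, and the median height was the same: at a height of 3 tags the median fold was 158 in deserts and 133 elsewhere, with implied inputs of 1.13 and 1.35. When peaks were divided into 4 strata of implied input, a division chosen after the values were seen, the share with at least 30 tags in deserts and elsewhere was, from low to high input, 2.06% against 2.48%, 2.38% against 2.52%, 2.53% against 3.58% and 2.11% against 3.15%, with 14, 22, 12 and 8 such desert peaks.

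The strongest desert peak by fold and by tags lay on chromosome 17 between Mmut, which encodes the mitochondrial methylmalonyl-CoA mutase, and Ptchd4, a patched-domain gene. It ran from 41547348 to 41547855 with 93 tags, a summit height of 20 and a fold of 1197, the sixth highest fold of the whole list, at an implied input of 1.00. Its nearest coding gene was 586 kb away, and the next strongest of the 4 other peaks in the same desert held 22 tags. The second by fold, also on chromosome 17 (94073969 to 94074377, 72 tags, fold 1051), lay between Adcyap1, the gene of the neuropeptide PACAP, and Mettl4, a methyltransferase gene. It shared its desert with another peak of 35 tags. Next came a peak on chromosome 18 between Kctd16, an auxiliary subunit of GABA-B receptors, and Prelid2, with 45 tags and a fold of 1017, where the next of the other 5 peaks held 6 tags. The peaks beside Mmut and Kctd16 thus stood far above the rest of their deserts, and that beside Adcyap1 shared its desert with another strong one, whose fold was 598.

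Chromosome 12 held 2 more of the first 10. One lay 525 kb from Stxbp6, a regulator of vesicle fusion, and 1098 kb from Nova1, a neuronal splicing factor (45599373 to 45599804, 58 tags, fold 958). The other lay between Mdga2, a synaptic adhesion gene, and Rps29, a ribosomal protein gene, with 47 tags and a fold of 838. The same fold was reached on chromosome 18 between Cbln2, a synaptic organiser, and Socs6, a suppressor of cytokine signalling (48 tags). The remaining 4 by fold ran from 830 down to 786. The first of these lay on chromosome 14, 519 kb from Fgf9 and 502 kb from the coding gene on its other side, and so close to the bound of the rule. The peak of 51 tags was the only one in its desert, which measured just 0.0202 Mb. The next lay between Ptprd, a receptor tyrosine phosphatase, and Tyrp1, a pigment gene, on chromosome 4 (49 tags), and another between Tafa2 and Slc16a7, a monocarboxylate transporter, on chromosome 10 (41 tags). The last lay between Cdh2, which encodes N-cadherin, and the desmocollin gene Dsc3 on chromosome 18 (60 tags).

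Of these 10 peaks, 9 had an implied input under 1.1, and the exception was that between Cdh2 and Dsc3, with 1.30. Ranking by fold, which is height over background, itself favours a low implied input, and the median over all desert peaks was 1.13. The low values of the 10 therefore only describe them. None of the 10 lay inside an annotated noncoding gene. By tags, the second was not among the 10: the peak between Otol1, an inner-ear matrix protein, and Sis, the intestinal sucrase-isomaltase, on chromosome 3 (70944144 to 70944652) held 75 tags at a fold of 640 and an implied input of 1.59. The 3 longest desert peaks were 554, 545 and 533 bp. They lay in the stretch from Brinp3 to Pla2g4a, the cytosolic phospholipase A2, in that from Nudt12 to Efna5, the ephrin A5 gene, and in that from Otol1 to Sis, with 42, 32 and 42 tags.

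The 56 peaks with at least 30 tags were spread thinly. They fell in 47 of the 198 deserts and on all 14 chromosomes, with 2 in each of 9 deserts and never more. In 16 of them the nearest coding gene was over 1000 kb away. The closest pair, 633 bp apart between Gfra2, a neurotrophic factor receptor, and Gm9195 on chromosome 14, held 37 and 36 tags. The pair is outside the rule for named peaks and was picked with its values in view. Among the 1000 peaks of highest fold on these chromosomes, 49 were desert peaks, near their share of all peaks of 4.81%.

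The deserts differed in how many summits they held. Of the 198, 182 held at least 1 desert peak, and the longest of the 16 without one measured 0.305 Mb. The 97 deserts of at least 0.5 Mb held 2054 of the 2455 peaks, at a median of 14.4 summits per Mb. Of these 97, 95 lay below the density of the rest of their chromosome, and in 79 the upper bound of the Poisson interval was below it. In none was the lower bound above it. The median ratio was 0.483. Over these 97 deserts, density and median implied input gave Pearson's r = 0.345 and Spearman's rho = 0.556, as a description of deserts that share libraries and depth.

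Of the 4 longest deserts, 3 lay beside genes of the cadherin family, which encode cell adhesion proteins. The longest of all, on chromosome 14 between the protocadherin genes Pcdh20 and Pcdh9, measured 3.54 Mb and held 30 summits, 8.47 per Mb (5.71 to 12.1), where the density of the rest of the chromosome would give 77.6. The farthest desert peak of all lay in it, 2237 kb from Pcdh20, with 12 tags and a fold of 359. Its strongest peak held 18 tags. The stretch from Celf4, an RNA-binding protein gene, to the lipid kinase gene Pik3c3 on chromosome 18 (3.51 Mb) held 47 summits, and that from Olfm4, an intestinal stem cell marker, to Pcdh17 on chromosome 14 (3.42 Mb) held 33. The stretch from Cntnap5b, a contactin-associated gene, to Cdh20 on chromosome 1 (3.28 Mb) held 53, at 16.2 per Mb.

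The next 4 by length ran from 8.36 to 18.5 summits per Mb. The stretch from Tenm3, a teneurin gene, to the lysosomal enzyme gene Aga on chromosome 8 held 25 summits, 8.36 per Mb, and that from the zinc transporter gene Slc39a10 to Tmeff2 on chromosome 1 held 55, 18.5 per Mb. The stretch from Dsel to Cntnap5a, also on chromosome 1, held 40, and that from Pcdh7 to G6pd2 on chromosome 5 held 35. All 8 had an upper bound below the rest of their chromosome. The 500 kb at either end of a gene-free stretch are not part of the desert. Beside the longest desert they held 5 further summits, the strongest of 35 tags, whereas beside that from Celf4 to Pik3c3 they held 21 and beside that from Cntnap5b to Cdh20 they held 19.

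**Figure D4:**
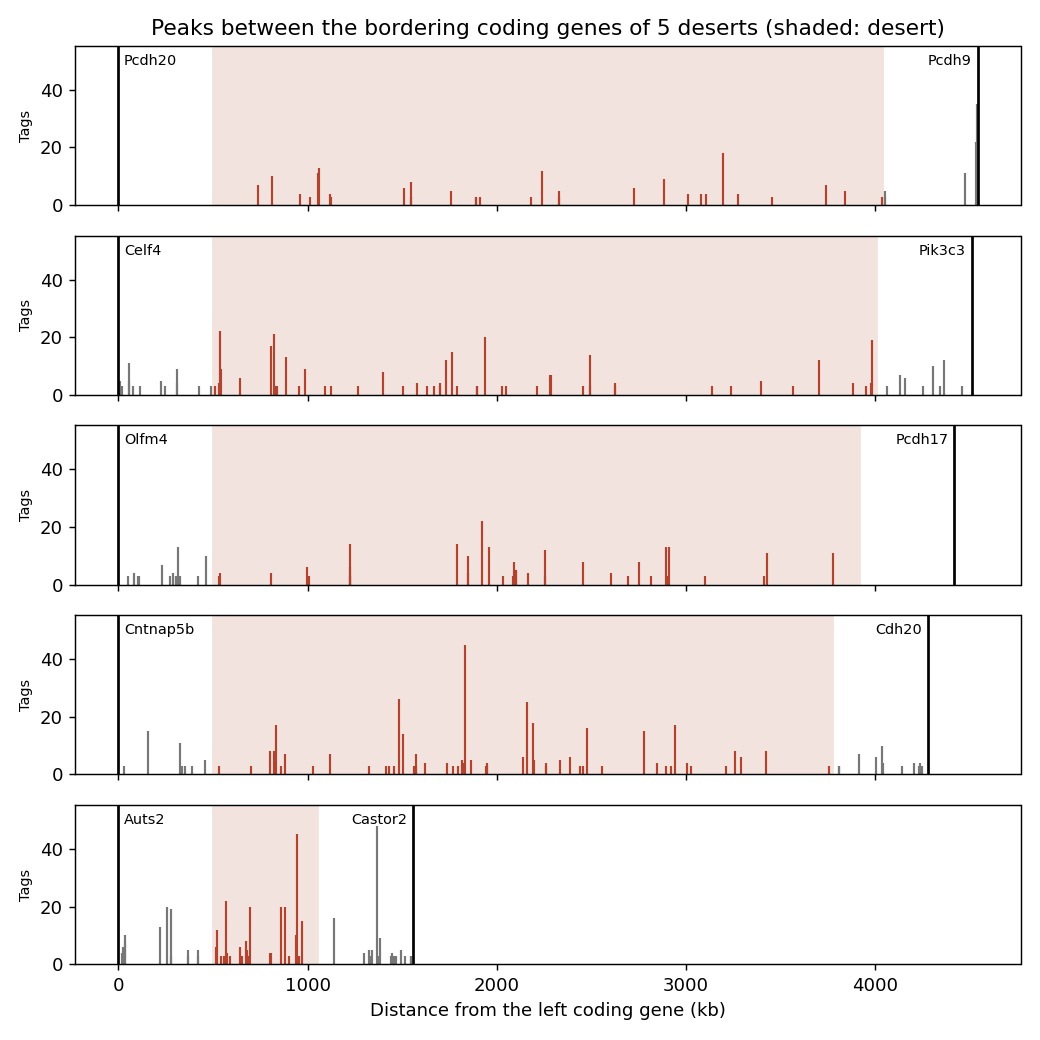
Tags per peak against distance in kb from the left bordering coding gene, in the 4 longest deserts and the densest one, with desert peaks in red, other peaks in grey and the desert shaded. Peaks are scattered through each desert with long empty parts, up to 565 kb between Olfm4 and Pcdh17, and number from 30 between Pcdh20 and Pcdh9 to 53 between Cntnap5b and Cdh20, and 24 in the much shorter stretch between Auts2 and Castor2.

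The densest desert of at least 0.5 Mb lay on chromosome 5 between Auts2, a gene of neural development, and Castor2, of the family of arginine sensors. Its 0.557 Mb held 24 summits, 43.1 per Mb (27.6 to 64.2), with 20.7 given by the rest of the chromosome, and the strongest held 45 tags. Its implied input, 1.402, was above the desert median. The next were the stretches from Snx16, a sorting nexin gene, to Ralyl on chromosome 3 (49 summits, 24.1 per Mb), from Gm42163 to the centromere protein gene Cenpc1 on chromosome 5 (23.9), from Gm597 to Phf3 on chromosome 1 (23.5) and from the atypical cadherin gene Fat4 to Intu, a planar polarity gene, on chromosome 3 (23.1). Their implied inputs, in the same order, were 1.33, 1.24, 1.18 and 1.13. Among deserts of at least 0.5 Mb, the stretches beside Auts2 and Snx16 were the 2 above the rest of their chromosomes, by ratios of 1.16 and 1.03, both within counting error of 1. Of the 101 shorter deserts, which held 401 peaks, 15 lay above the rest of their chromosome and 2 had an interval wholly above it. One was the stretch of 0.189 Mb from Plekhb2 to Hs6st1, a heparan sulphate sulphotransferase gene, on chromosome 1, with 13 summits of at most 10 tags, 68.9 per Mb (36.7 to 117.7) against 33.0, at an implied input of 1.51. The other was the short stretch at the start of chromosome 3, before Hnf4g, where 3 summits of at most 4 tags lay within 2505 bp. Bases were counted from the first summit of the chromosome, so a counted peak set the left edge of that stretch. Its density is therefore not a free measure.

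The 5 sparsest deserts of at least 0.5 Mb held between 2 and 6 summits. On chromosome 14 the stretch between Gm36448 and Dad1 held 2, or 2.88 per Mb (0.349 to 10.4). On chromosome 8 those from BC030500 to Aadat and from Frg1 to Triml1 held 3 and 4. The stretch from Gm6749 to Grm7, a metabotropic glutamate receptor gene, on chromosome 6 held 5, of which 4 had 3 tags, and that from Slitrk1 to Slitrk6, neuronal adhesion genes, on chromosome 14 held 6, none with 3 tags.

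**Figure D5:**
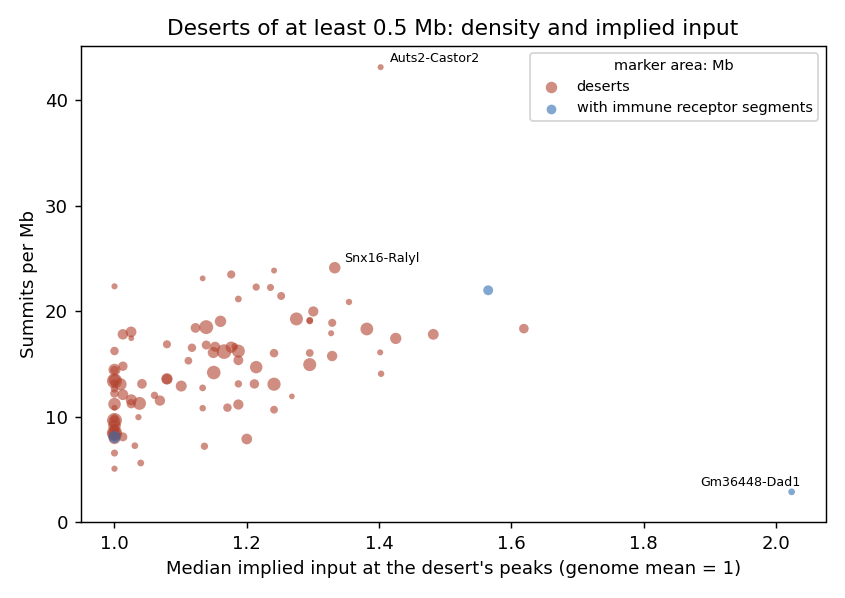
Summits per Mb against the median implied input of the peaks in each of the 97 deserts of at least 0.5 Mb, with marker area by length and the 3 stretches of immune receptor segments in blue. The stretch from Auts2 to Castor2 stands at 43.1 per Mb, and that from Gm36448 to Dad1 at 2.88 per Mb and an implied input of 2.02.

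Not every stretch found by the rule was empty of genes. In 3 of them RefSeq lists immune receptor segments, which it does not class as protein-coding genes and which are joined into antibody and T cell receptor genes only in lymphocytes. The stretch from Adam6a to Zfp386 on chromosome 12, inside the immunoglobulin heavy chain locus Igh, held 115 segments and 33 summits, 22.0 per Mb at an implied input of 1.57. The sparsest desert, from Gm36448 to Dad1, held 72 segments and 2 summits. V segments are close copies of one another. Their counts are uncertain, since nothing used here says what was done with reads that fit more than 1 copy. Without the 3 stretches 2402 peaks remained, and the density ratio was 0.504.

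The name rule used counted 25 cadherins and protocadherins on these chromosomes, leaving out the clustered protocadherin genes of chromosome 18. Of 365 coding genes that border a desert, among 14588 coding genes on these chromosomes, 12 were such genes. Among them were Cdh2, Cdh8, Cdh11, Pcdh7 and Pcdh9. The 15 deserts beside them covered 30.7 Mb and held 387 summits, 12.6 per Mb. Other synaptic adhesion genes bordered 14 deserts, 11 of 26 genes, among them Tenm3, Tenm4 and Slitrk1, with 13.4 summits per Mb. Genes of axon guidance, such as Robo1, Slit2, Epha7 and Dcc, bordered 11 deserts (9 of 45 genes, 16.3 per Mb). Glutamate and GABA receptor genes such as Grik2 and Grm7 bordered 6 (6 of 30 genes, 13.9 per Mb). In the order given, these families made 3.29%, 3.01%, 2.47% and 1.64% of bordering genes, against 0.171%, 0.178%, 0.308% and 0.206% of coding genes.

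Genes of developmental transcription factors made 4.11% of bordering genes against 0.733% of coding genes. They bordered 15 deserts, 15 of 107 genes, and these held 17.01 summits per Mb. Among them were Sox2 of stem cells, Nr2f1, Nr2f2, Pou3f2 and Id2. Of 42 ADAM and ADAMTS protease genes 4 bordered deserts, with 22.6 summits per Mb, and 33 of their 52 summits came from the Igh stretch beside Adam6a. Potassium and sodium channel genes, 2 of 61, bordered 2 deserts, beside Kcnd2 and Kcnt2 (14.4 per Mb). The channels made 0.548% of bordering genes, near their 0.418% of coding genes. None of 886 olfactory and vomeronasal receptor genes, which lie in dense clusters, bordered a desert. Each of the other family densities lay between 12.6 and 17.01 per Mb, around the 14.7 of all deserts, and families share deserts where both neighbours belong to one.

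Noncoding genes lay in most deserts but covered little of them. RefSeq lists 1078 such genes and pseudogenes there, over 10.1% of the desert bases, and 266 desert summits (10.8%, exact interval 9.63 to 12.1) lay inside one. Inside them the density was 15.9 summits per Mb, against 14.6 in the desert bases outside them. Long noncoding RNA genes, 244 in number, covered 6.52% of the bases and held 177 summits (7.21%, interval 6.22 to 8.31), 16.3 per Mb. Pseudogenes covered 0.869% and held 35 summits (1.43%, 0.995 to 1.98), 24.2 per Mb. The share of summits was thus within counting error of the share of bases for all noncoding genes and for long noncoding RNA genes, and above it for pseudogenes. Of the 35 pseudogene summits, 6 lay in Gm3116. Pseudogenes are copies of other genes, and whether that bears on their share was not tested. Of the 266, 51 lay in Igh and the kappa light chain locus Igk.

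Peaks inside noncoding genes were somewhat smaller than the others in the deserts, with the same median of 4 tags but a 75th percentile of 6 against 8 tags. Those of 3 tags made up 46.2% (exact interval 40.1 to 52.4) against 40.2% (38.1 to 42.2). Those of at least 10 tags made up 15.4% (11.3 to 20.3) against 20.6% (18.9 to 22.3), and the median fold was 145 against 166. The intervals of both shares overlapped, and the peaks in Igh and Igk are part of these values. Of the 56 peaks with at least 30 tags, 3 lay inside a noncoding gene. The noncoding genes with the most desert summits were long ones. Apart from Igh and Igk, Gm32647 on chromosome 7 (1284 kb) held 18, none above 15 tags, and 1700019L22Rik on chromosome 8 (799.5 kb) held 9. The shorter 4930556G01Rik (191 kb) and Gm52725 (165 kb), both on chromosome 4 in the deserts on either side of the ephrin receptor gene Epha7, held 7 and 6, at 36.6 and 36.4 per Mb. The pseudogene Gm3116 on chromosome 1 held 6, of which the strongest had 45 tags and a fold of 710, and Gm6602 on chromosome 3 held 5. These genes were ranked by their summits, so their densities only describe them.

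At 80 noncoding genes a desert summit lay within 1 kb of a gene end, beside 1078 noncoding genes and pseudogenes listed in deserts. Of the 80, 23 were long noncoding RNA genes, beside 244 in deserts. The share of desert bases within 1 kb of an end was not worked out, so these counts show no preference for gene ends. The highest fold was at Gm42264 on chromosome 4, where a peak of 28 tags (26857722 to 26858076, fold 676) had its summit 103 bp from an end. It was followed by the pseudogene Gm5839 on chromosome 18 (21 tags, fold 539, 901 bp) and by AA545190 on chromosome 6 (20 tags, fold 384, 248 bp), a long noncoding RNA gene. The other 5 ran from 317 down to 277: Gm30063 and Gm42184 on chromosome 3, the pseudogene Gm18551 and the segment pseudogene Ighv15-1 of the Igh locus, and Gm6942 on chromosome 18. None of these 8 peaks held 30 tags, although Gm42184 held another of 49 tags inside it.

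Within a desert, neighbouring summits lay a median of 41.2 kb apart (2273 pairs, 5th to 95th percentile 0.798 to 198 kb), against 19.4 kb between neighbouring summits elsewhere. Pairs within 10 kb made up 18.3% in deserts and 32.3% elsewhere, and gaps over 100 kb made up 21.0% and 6.22%. Multiplied by the summit density, the median gap was 0.607 in deserts and 0.569 elsewhere. The spacing relative to density was thus similar, and the wider gaps largely restate the lower density. The widest gap between neighbours in 1 desert was 565 kb. The 500 kb bound cut through a continuous range: the 3 desert peaks nearest to it lay 500.2, 500.2 and 500.4 kb from a coding gene with 3, 5 and 4 tags, and the 3 peaks nearest to it on the other side lay 499.98, 499.9 and 499.6 kb away with 3, 6 and 3 tags.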

How the data were processed

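DNA from 4 ChIRP-seq libraries of 4T1-TGL cells was sequenced as single reads of 76 nt, per the labels, and the deposited tag size was 25. Peaks were called with MACS 1.4.4 on a merged treatment against an input at a p-value cutoff of 1e-05, per the file headers, with 1 tag kept per position and local backgrounds of 1 and 10 kb. The submitters' processing notes give mm10 and GRCm38 as the build. The aligner, the treatment of reads with several matches, and which libraries were merged are not given in the sources used here. Of 988411 treatment tags 851227 remained after duplicate removal, and of 52861677 input tags 50030325 remained, or 58.8 input tags per treatment tag.

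The deposited list gives tag counts per peak, a score that is 10 times the negative log10 of the p-value, the fold ratio and an FDR in percent, which the authors' caller gave as 0 for every peak. A deposited summit list gives the height, a signal of piled-up tags. FDR was not used further. Some bordering genes and 1 stretch are not reported here.

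Distances ran from the summit to 14588 protein-coding gene bodies of the RefSeq table for GRCm38.p6, and densities used the bases between the first and last summit of each chromosome. Distance bins beyond 500 kb were made finer than first planned. Intervals are exact (Poisson or Clopper-Pearson, 95%), and no test was possible with 1 list. The distance and length code was tested on simulated data. Base composition and repeats of the peaks need a genome, which was not used here.

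Members, gene lists and tests were chosen with earlier results of these data known. Named by rule were the 10 desert peaks of highest fold, the 5 of most tags and the 3 longest, the 8 longest deserts and, from 0.5 Mb, the 5 densest and 5 sparsest with their bordering genes, and the 8 noncoding genes with most summits and the 8 with the highest fold within 1 kb of an end. Bordering genes were grouped by family names, and other peaks or genes singled out were chosen after their values were seen. Alternatives varied the distance, the p-value cutoff, the genes counted, the use of 3-tag peaks and the pooling of chromosomes. Python 3.11.15, pandas 2.3.3, numpy 2.4.6, scipy 1.17.1 and matplotlib 3.10.9 were used.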

Additional observations from a re-analysis of the deposited data

How the results depend on the processing

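The density of summits in deserts stayed below that of the rest of these chromosomes under every alternative run. A desert distance of 250 kb gave 5563 peaks, a density ratio of 0.576, a median implied input of 1.19, a noncoding share of 12.9% and a median gap of 33.1 kb. A distance of 1000 kb gave 770 peaks, a ratio of 0.472, a median fold of 168, an implied input of 1.13 and a gap of 43.8 kb. A p-value of at most 1e-10 left 1105 peaks with a median of 9 tags, a fold of 239, a length of 206 bp, a noncoding share of 8.51% and a gap of 87.5 kb. Measured from any annotated gene, 34 peaks were left, with a fold of 174 and an implied input of 1.13. Without 3-tag peaks the median fold was 213 and the length 182 bp. As a median over chromosomes the fold was 174 and the implied input 1.102. With immune receptor segments treated as coding genes, an alternative chosen after seeing the data, the noncoding share was 8.87%. The changes in number, tags, fold, length and gap under the p-value and 3-tag settings follow from leaving out weak peaks. That of the noncoding share under the immune segment setting follows from leaving out the 53 peaks of those stretches, 51 of them in Igh and Igk. The cause of the others was not tested. The other 46 values moved by less than their counting intervals, or by less than 1.5 times for the number of peaks. Leaving out coding genes with a predicted or clone name, also chosen after seeing the data, gave 2699 peaks and a ratio of 0.491.

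No paired analysis was possible because each group had 1 library and the merged list names none. Depth limits these results: 40.8% of desert peaks rest on 3 tags, and a stretch without a peak holds too few tags for a call, which does not show that it holds none. The lists used here give no peaks of the Lacz pull-down by itself, and no desert peak was set against it.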
